A study of Homo sapiens with 6 samples.

Results

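The DDX and DHX genes mostly encode RNA helicases of the DEAD-box and DEAH-box families, though DDX11 encodes a DNA helicase. They were taken from a gene count table as the protein-coding entries whose symbol is DDX or DHX followed by a number and at most a letter, leaving out DDX58, DHX58 and genes on X or Y. The rule used names only and no measured value, and it gave 49 genes of the 57820 in the table, 34 DDX and 15 DHX. Of these, 44 had enough counts to be tested among 19676 genes, and DDX4, DDX25, DDX39B, DDX43 and DDX60L had not. DDX52 is not analysed here.

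The libraries come from HEK293T, a cell line derived from human embryonic kidney and transformed further with SV40 large T antigen. All 6 had RfxCas13d, a CRISPR effector that a crRNA guides to RNA and that then cuts it. The non-targeting group (3 libraries) had a crRNA with no target, and the mCherry-targeting group (3 libraries) had a crRNA directed at the mRNA of a red fluorescent protein foreign to the human genome. The comparison asks which endogenous transcripts differ between these crRNAs, and poly(A)-enriched RNA was read as strand-marked, paired-end libraries. The labels do not say how RfxCas13d and the crRNA were delivered, whether the cells held mCherry mRNA, or whether the biological replicates were separate cultures. P-values therefore measure only the spread between these libraries, which may be technical.

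RNA helicases use ATP to separate RNA strands or strip proteins from RNA. DEAD-box enzymes open short duplexes locally, while DEAH-box enzymes move along RNA, often switched on by partners that carry a G-patch. Through them cells remodel the spliceosome, assemble ribosomes, export mRNA, start translation and store or destroy mRNA.

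The families are named after helicase motif II, the part of the ATP-binding site that holds magnesium and cuts ATP. The coding sequences below, from GENCODE 29 transcripts, show that motif for members on which the results turn, with its 12 bases in capitals and 24 bases on each side, written 5′ to 3′.
DDX17: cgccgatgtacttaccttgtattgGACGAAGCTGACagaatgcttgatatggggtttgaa
DDX5: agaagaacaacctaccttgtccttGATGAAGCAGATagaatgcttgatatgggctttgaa
DDX46: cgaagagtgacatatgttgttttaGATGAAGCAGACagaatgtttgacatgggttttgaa
DDX21: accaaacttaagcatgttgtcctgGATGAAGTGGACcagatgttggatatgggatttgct
DDX50: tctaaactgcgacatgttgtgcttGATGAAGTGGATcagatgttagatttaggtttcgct
DDX39A: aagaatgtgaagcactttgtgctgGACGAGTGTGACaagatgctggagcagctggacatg
DDX39B: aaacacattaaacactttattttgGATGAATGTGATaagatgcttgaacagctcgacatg
DHX15: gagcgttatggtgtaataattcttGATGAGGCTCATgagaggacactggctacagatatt
DHX36: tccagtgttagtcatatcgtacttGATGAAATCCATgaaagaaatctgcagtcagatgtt
DHX8: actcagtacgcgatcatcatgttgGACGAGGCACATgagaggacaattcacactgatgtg
DHX30: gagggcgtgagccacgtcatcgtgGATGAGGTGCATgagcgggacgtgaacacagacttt

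Motif II was searched for in the translated sequences as aspartate, then glutamate or isoleucine, any residue, and aspartate, histidine or glutamine. The search also asked for an ATP-binding motif and a hydrophobic pair before it and helicase motif III after it. It found motif II in 41 of the 49 coding sequences. The residues possible at the last position were thus set by the search. Their division between DDX and DHX genes largely follows from the naming of the families after this motif, so it is a description only. The last codon of the motif was CAT or CAC in all 14 DHX genes found and in 0 DDX genes, and GAT or GAC in the other 27. Codon 3 of the motif was GCN in 31 of the 41 and another codon in 10. DDX21 and its neighbour DDX50 share GTG as codon 3, DDX39A and DDX39B share TGT, and DHX36 has ATC. No motif was found by this search in DDX1, DDX11, DDX24, DDX28, DDX51, DDX60, DDX60L and DHX32, which says only that these conditions were not met there.

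The libraries held between 21321850 and 25906275 counts. A longer marker list for HEK293T was drawn up beforehand, and some of its genes were not used. The markers used (LIN28B, VIM, KRT18, KRT8, INA and PAX2) were all measured. Their level is given in CPM, counts relative to a library total made equal between libraries, and summed to 485 to 582 CPM in the non-targeting and 465 to 552 CPM in the mCherry-targeting libraries. Of 5 blood markers 2 were at 0 in every library and the sum was 1.42 to 1.94 CPM against 1.51 to 1.75 CPM. Of 5 hepatocyte markers 2 were at 0 everywhere, with a sum of 0.276 to 0.38 CPM against 0.119 to 0.552 CPM, and of 5 fibroblast markers 1 was at 0, with 16.8 to 21.7 CPM against 15.6 to 19.1 CPM. Their part in the helicase results was not tested. In bulk RNA, fewer cells of a type and less RNA per cell cannot be told apart.

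Levels among the helicases were compared as CPM per kb of exon, averaged over the 6 libraries. DDX17, a coregulator of transcription and splicing, was highest at 223 CPM per kb. DDX21, which acts in ribosomal RNA synthesis and processing, followed at 94.4, then DHX9 (RNA helicase A) at 65.1, DDX5 at 59.2 and DHX30 at 41.0 CPM per kb. The median of the 44 tested genes was 14.2 CPM per kb. At the low end were DDX19B at 5.86, DDX47 at 1.03 and DDX60 at 0.482 CPM per kb. Length taken from the longest transcript in place of all exons put the median at 21.7, and the ranks by both lengths had a Spearman correlation of 0.966 over the 44 genes.

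**Figure D1:**
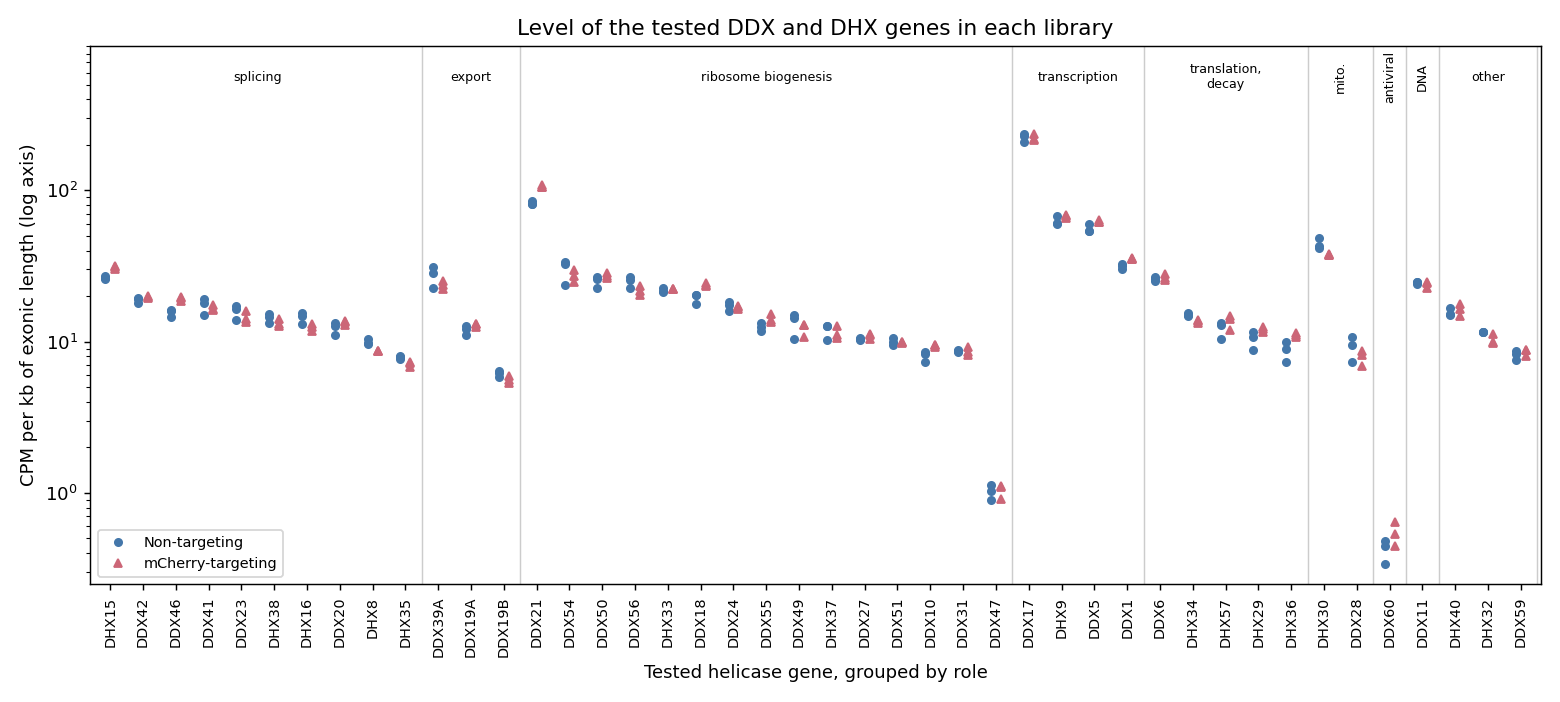
Level of each tested DDX and DHX gene in each of the 6 libraries, in CPM per kb of exon on a log axis, grouped by role. Each point is a library, with circles for the non-targeting and triangles for the mCherry-targeting group; DDX17 lies highest, near 223 CPM per kb, and DDX60 lowest, near 0.482.

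All 49 genes together took 0.758%, 0.742% and 0.696% of the counts in the non-targeting libraries. In the mCherry-targeting libraries they took 0.779%, 0.778% and 0.733%. The means were 0.732% ± 0.0322 (SD, n = 3) and 0.764% ± 0.0264 (SD, n = 3), and the groups overlapped. Their difference of 0.0313 percentage points was 0.0133 without non-targeting replicate 3. DDX17 alone made up between 28.4% and 32.2% of the helicase counts.

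The 5 untested genes were near or at 0. DDX4, the germ-cell helicase known as VASA, had 8, 1 and 3 counts in the non-targeting and 12, 9 and 5 in the mCherry-targeting libraries. DDX25, which acts in the testis, had 8, 8 and 6 against 2, 6 and 5 counts. DDX43, a cancer and testis antigen, had 0 counts in 5 libraries and 1 in mCherry-targeting replicate 2, and DDX60L, a relative of the antiviral DDX60, had at most 2. DDX39B, also called UAP56, is an mRNA export and splicing helicase that cells generally use, and it is listed at 0 in all 6 libraries. Of the 50-base windows of its longest transcript, 18.3% also occur in another annotated gene on the same strand, chiefly the read-through gene ATP6V1G2-DDX39B, which is listed at 0 as well. ATP6V1G2, the other gene in the name of that read-through, is listed at 0 in all 6 libraries too. The part of this sharing in the value was not tested. The 0 for DDX39B is therefore not read as absence of its RNA.

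Between the groups, the helicases differed little. The log2 fold change, mCherry-targeting over non-targeting, lay between -0.24 and 0.37 in the 44 tested genes, 23 of them above 0 and 21 below. Their median was 0.029, against -0.0037 over all genes tested, and it was 0.0095 without non-targeting replicate 3 and 0.0068 without mCherry-targeting replicate 2. The edgeR quasi-likelihood test called 0 of the 44 at a Benjamini-Hochberg adjusted p under 0.05, where 0.0102% of all genes were called. At an unadjusted p under 0.05 it had 11 of the 44 (25%), against 16.1% of all genes and 20.7% of those with a mean of at least 5 CPM. DESeq2 called DDX21 alone, with 0.879% of all genes called. By limma-voom 0 of the 44 were called, with 0.00508% of all genes called.

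Of the 11 genes, 7 were higher in the mCherry-targeting libraries (DDX1, DDX10, DDX18, DDX21, DDX46, DHX15 and DHX36) and 4 lower (DDX56, DHX8, DHX16 and DHX30). That is 15.9% and 9.09% of the tested helicases, against 10.0% and 6.09% of all genes. All 3 mCherry-targeting libraries lay above all 3 non-targeting ones for 10 helicases (22.7%, against 12.6% of all genes and 15.9% of those with at least 5 CPM). They lay below for 5 (11.4%, against 9.37% and 11.9%). The first 10 include DDX5, DDX55 and DHX29 besides the 7 named, and the 5 are DHX8, DHX30, DHX32, DHX34 and DHX35.

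**Figure D2:**
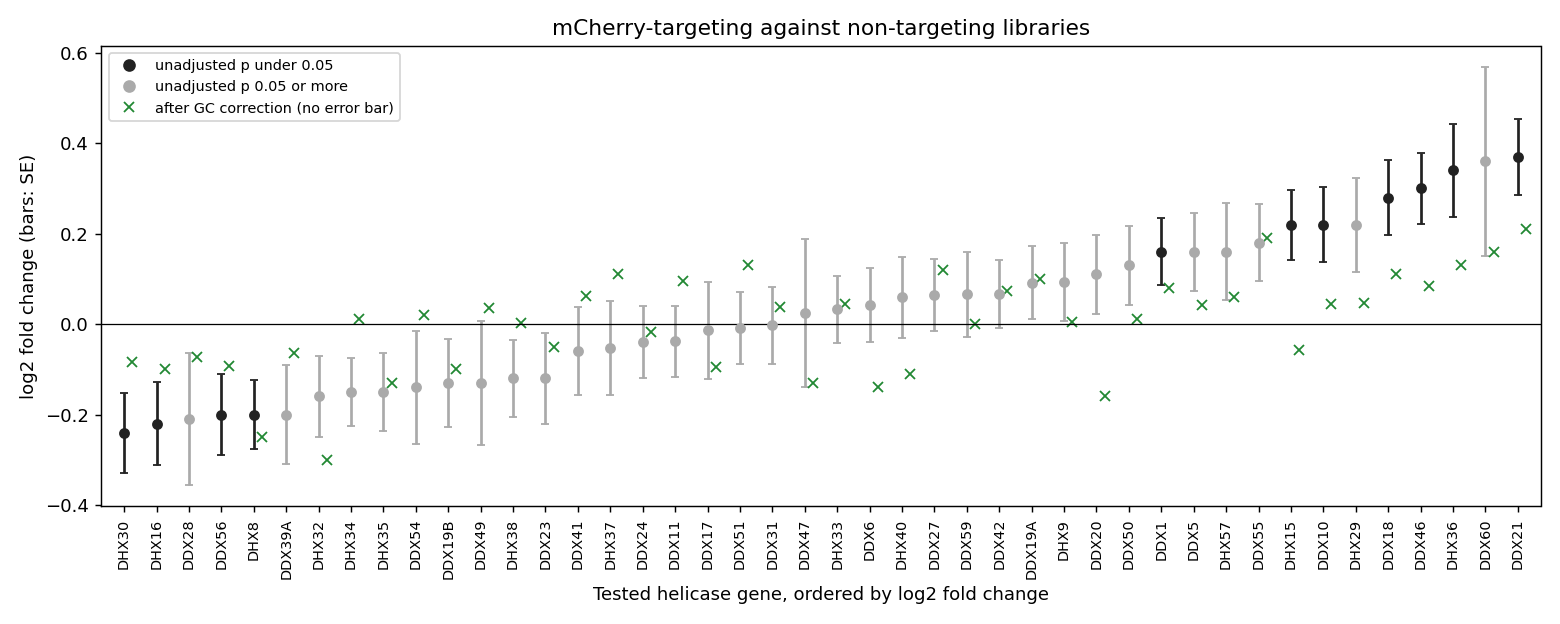
Log2 fold change of each tested helicase, mCherry-targeting over non-targeting, in order of size, with bars of 1 SE from the edgeR fit; black points have an unadjusted p under 0.05 and crosses are values after correction for GC content. The values run from -0.24 for DHX30 to 0.37 for DDX21, and 7 of the black points lie above 0 and 4 below.

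Among the 15 helicases of ribosome biogenesis, 3 had an unadjusted p under 0.05 with a higher level and 1 with a lower level, against 10.0% and 6.09% of all genes, and the median log2 fold change was 0.025. DDX21 was at 406, 428 and 407 CPM in the non-targeting and 527, 527 and 547 CPM in the mCherry-targeting libraries. Every mCherry-targeting library was above every non-targeting one, and within each group the values lay close together. The difference was 1.29-fold, a log2 fold change of 0.37 ± 0.0844 (SE), with an edgeR unadjusted p of 0.000925 and an adjusted p of 0.193. DDX21 (ENSG00000165732.8) lies on chromosome 10 from 68956128 to 68985073, plus strand, in GRCh38.

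DDX18, needed for large ribosomal subunits, was at 159.9, 159.9 and 139.8 CPM against 185, 191 and 183 CPM. The groups did not overlap, and non-targeting replicate 3 was the lowest library. Its log2 fold change was 0.28 ± 0.0827 (SE; edgeR adjusted p = 0.2). DDX10, which acts in the small subunit pathway, was at 72.0, 73.6 and 63.9 CPM against 82.2, 82.8 and 79.4 CPM, again without overlap and with non-targeting replicate 3 lowest. Its log2 fold change was 0.22 ± 0.0833 (SE; edgeR adjusted p = 0.238).

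DDX56, a nucleolar helicase of the large subunit pathway, was at 92.4, 104.7 and 108.3 CPM against 88.4, 82.3 and 94.9 CPM. Here mCherry-targeting replicate 3 lay above non-targeting replicate 1, so the groups overlapped. DDX56 had a log2 fold change of -0.20 ± 0.0896 (SE; edgeR adjusted p = 0.297). DDX55 was at 71.0, 76.3 and 67.6 CPM against 87.1, 77.1 and 79.0 CPM, just without overlap, with a log2 fold change of 0.18. The others of this role were DDX24, DDX27, DDX31, DDX47, DDX49, DDX50, DDX51, DDX54, DHX33 and DHX37, with log2 fold changes from -0.14 for DDX54 to 0.13 for DDX50. Of the transcript windows of DDX47, 53.9% also occur in APOLD1, so its low level is uncertain.

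The 10 helicases of pre-mRNA splicing had 2 genes with an unadjusted p under 0.05 in each direction, against 10.0% higher and 6.09% lower among all genes, and a median log2 fold change of -0.09. DDX46, also called PRP5, which acts when the U2 snRNP joins the branch site, was at 149, 148 and 135 CPM against 180.3, 179 and 172 CPM. The groups did not overlap. This gave a log2 fold change of 0.30 ± 0.0788 (SE), with edgeR unadjusted p = 0.00256 and adjusted p = 0.194. DHX15, which takes spent spliceosomes apart and is activated by G-patch proteins, was at 222, 216 and 212 CPM against 257, 254 and 247 CPM. It did not overlap either and had a log2 fold change of 0.22 ± 0.0771 (SE; edgeR adjusted p = 0.223).

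DHX8, or PRP22, which releases the spliced mRNA, was at 100.5, 102 and 109 CPM in the non-targeting and 91.0, 90.6 and 90.2 CPM in the mCherry-targeting libraries. All mCherry-targeting values were lower and within 1 CPM of each other. The log2 fold change was -0.20 ± 0.0753 (SE; edgeR adjusted p = 0.24). DHX16, or PRP2, which activates the spliceosome before the first step, was at 52.3, 59.3 and 61.9 CPM against 47.1, 49.8 and 52.3 CPM. Its groups met at non-targeting replicate 1 and mCherry-targeting replicate 3, and the log2 fold change was -0.22 ± 0.092 (SE; edgeR adjusted p = 0.277). The other members were DDX20 of the SMN complex, DDX23 of the U5 snRNP, DDX41, DDX42, DHX35 and DHX38, the second-step factor PRP16. They ranged from -0.15 for DHX35 to 0.11 for DDX20, and DDX20 was at -0.16 after correction for GC content.

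In mRNA export 3 of 5 helicases were tested, with 0 at an unadjusted p under 0.05. DDX39A, a close relative of DDX39B, was at 86.5, 109 and 119 CPM against 91.3, 85.6 and 96.2 CPM. The groups overlapped because non-targeting replicate 1 was low, and the log2 fold change was -0.20 ± 0.11 (SE). It was -0.33 without non-targeting replicate 1 and -0.10 without non-targeting replicate 3. DDX19A and DDX19B act at the nuclear pore and share sequence. Of the windows of DDX19A, 13.1% occur in DDX19B and 30.3% in the overlapping gene AC012184.2, and of those of DDX19B, 21.2% occur in DDX19A and 40.8% in AC012184.2, so the division of reads among these genes is uncertain. DDX19A was at 87.6, 99.1 and 96.4 CPM against 102, 102 and 97.4 CPM, and DDX19B at 26.2, 27.9 and 28.8 CPM against 26.8, 25.3 and 24 CPM. Both overlapped between the groups.

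Of the 4 helicases of transcription and RNA processing, only DDX1, of the tRNA ligase complex, had an unadjusted p under 0.05. It was at 125, 117 and 121 CPM against 134, 136 and 135 CPM, without overlap, with a log2 fold change of 0.16 ± 0.0739 (SE; edgeR adjusted p = 0.304). DDX17 was at 2359.7, 2288 and 2081 CPM against 2180.3, 2340.1 and 2144 CPM. Its groups lay within each other, and the log2 fold change was -0.014 ± 0.107 (SE). DDX5, its partner in coregulator and microRNA-processing complexes, was at 399, 439 and 399.9 CPM against 472, 454 and 458 CPM, without overlap and with a log2 fold change of 0.16 ± 0.0863 (SE). DHX9 had a log2 fold change of 0.094.

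Of the 5 helicases of translation, decay and G-quadruplexes, DHX36 alone had an unadjusted p under 0.05. DHX36, which unwinds G-quadruplexes, was at 104.8, 94.7 and 77.9 CPM in the non-targeting and 120.1, 116.8 and 113.5 CPM in the mCherry-targeting libraries. The groups did not overlap, but non-targeting replicates 1 and 3 differed by more than the 2 nearest libraries of the groups. For DHX36 the log2 fold change was 0.34 ± 0.103 (SE; edgeR unadjusted p = 0.00654, adjusted p = 0.202). It was 0.22 without non-targeting replicate 3 and 0.44 without non-targeting replicate 1. DHX34, which acts in nonsense-mediated decay, was at 83.9, 87.9 and 85.3 CPM against 77.5, 75.9 and 78.6 CPM, without overlap, at -0.15 ± 0.0748 (SE) on the log2 scale. DDX6, the repressor and decay helicase of P-bodies, was at 295, 306 and 286 CPM against 291, 319 and 303 CPM, with overlap. DHX29, which helps scanning ribosomes through structured leaders, had a log2 fold change of 0.22, and DHX57, whose role is less known, one of 0.16.

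The helicases of mitochondrial RNA, DHX30 and DDX28, were both below 0. DHX30, which acts in mitochondrial ribosome assembly and in the cytoplasm, was at 319.6, 333 and 377 CPM in the non-targeting and 289.1, 289.5 and 295 CPM in the mCherry-targeting libraries. All mCherry-targeting libraries were lower, and non-targeting replicate 3 was the highest. The log2 fold change was -0.24 ± 0.0887 (SE; edgeR unadjusted p = 0.0201, adjusted p = 0.238), and that of DDX28 was -0.21 with overlapping groups. The GC content is 59.9% for DHX30 and 58.4% for DDX28, and all 13 tested helicases with more than 55% were below 0. After correction for GC content DHX30 was at -0.083 and DDX28 at -0.072.

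DDX60, an antiviral factor induced by interferon, was low, at 3.27, 3.00 and 2.28 CPM against 3.62, 4.33 and 3.01 CPM. Its groups overlapped, and the log2 fold change of 0.36 ± 0.209 (SE) had the largest error of the tested helicases. DDX11, a DNA helicase of sister chromatid cohesion, was at 208, 207 and 202 CPM against 207, 204 and 189 CPM, and 36.8% of its transcript windows also occur elsewhere. The copies DDX12B (AC009533.1 in GENCODE 29) and DDX12P held 29.5% and 29.2% of the windows, so reads may be divided between these genes. DHX40, of less settled role, was at 88.5, 99.3 and 90.3 CPM against 87.9, 97.3 and 104.6 CPM, and 24.5% of its windows are shared, chiefly with DHX40P1. Both overlapped between the groups. DDX59, also of less settled role, had a log2 fold change of 0.066.

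For the pairs of close relatives, the log2 ratio of the levels of both genes was taken within each library. DDX21 over DDX50 was 2.54, 2.58 and 2.74 in the non-targeting and 2.90, 2.85 and 2.84 in the mCherry-targeting libraries. DDX50 itself was at 69.6, 71.8 and 60.7 CPM against 70.8, 73.3 and 76.5 CPM, with overlap. DDX5 over DDX17 was -2.56, -2.38 and -2.38 against -2.21, -2.37 and -2.23. DDX19A over DDX19B was 1.74, 1.83 and 1.74 against 1.93, 2.01 and 2.02. In all 3 pairs the mCherry-targeting ratios lay above the non-targeting ones, by 0.24, 0.17 and 0.22 in the mean. For DDX5 over DDX17 the nearest values were -2.37 and -2.38. The direction depends on which gene was put first, and no share over other gene pairs was taken. Division of reads between DDX19A and DDX19B is uncertain, as said above. Without non-targeting replicate 1 the difference for DDX5 over DDX17 was 0.11. The exact permutation test gave a two-sided p of 0.1 for each, also 0.1 after adjustment over the 3 pairs, which is the smallest that 3 libraries against 3 allow. For DDX39A with DDX39B and DDX60 with DDX60L no ratio was taken, because DDX39B and DDX60L were not tested.

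Fold changes of the helicases were ordered by the GC content of their longest transcript, which ran from 35.2% in DHX15 to 61.7% in DDX49. Spearman's correlation of log2 fold change with GC content was -0.766 over the 44 helicases and -0.684 over 13472 protein-coding genes. Genes are not replicates and share the same 6 libraries, so this describes these libraries only. Of 20 helicases with a GC content up to 45%, 18 had a log2 fold change above 0, DDX17 and DHX32 being the exceptions. Their median was 0.16, against 0.17 for all genes in that range. Of 13 with more than 55%, all 13 were below 0, with a median of -0.14 against -0.16 for all genes there. The 11 between these limits had 5 above and 6 below 0, and a median of -0.0029 against -0.06.

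The relation was also present between libraries of the same group. For the helicases with up to 45% GC, the median deviation from each gene's mean log2 CPM was -0.02, -0.0038 and -0.19 across the non-targeting replicates, in order, against 0.11, 0.1 and 0.073 across the mCherry-targeting ones. For those over 55% it was -0.068, 0.12 and 0.19 against -0.07, -0.1 and -0.0079. Non-targeting replicate 1 thus lay with the mCherry-targeting libraries for the GC-rich helicases. It also lay with mCherry-targeting replicates 1 and 2 in the share of counts taken by the small nuclear RNA 7SK, which was 0.516%, 0.716% and 0.439% in these 3 libraries and 1.15%, 1.37% and 1.15% in the others (non-targeting replicates 2 and 3 and mCherry-targeting replicate 3). The part of this difference between libraries in the helicase values was not tested.

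**Figure D3:**
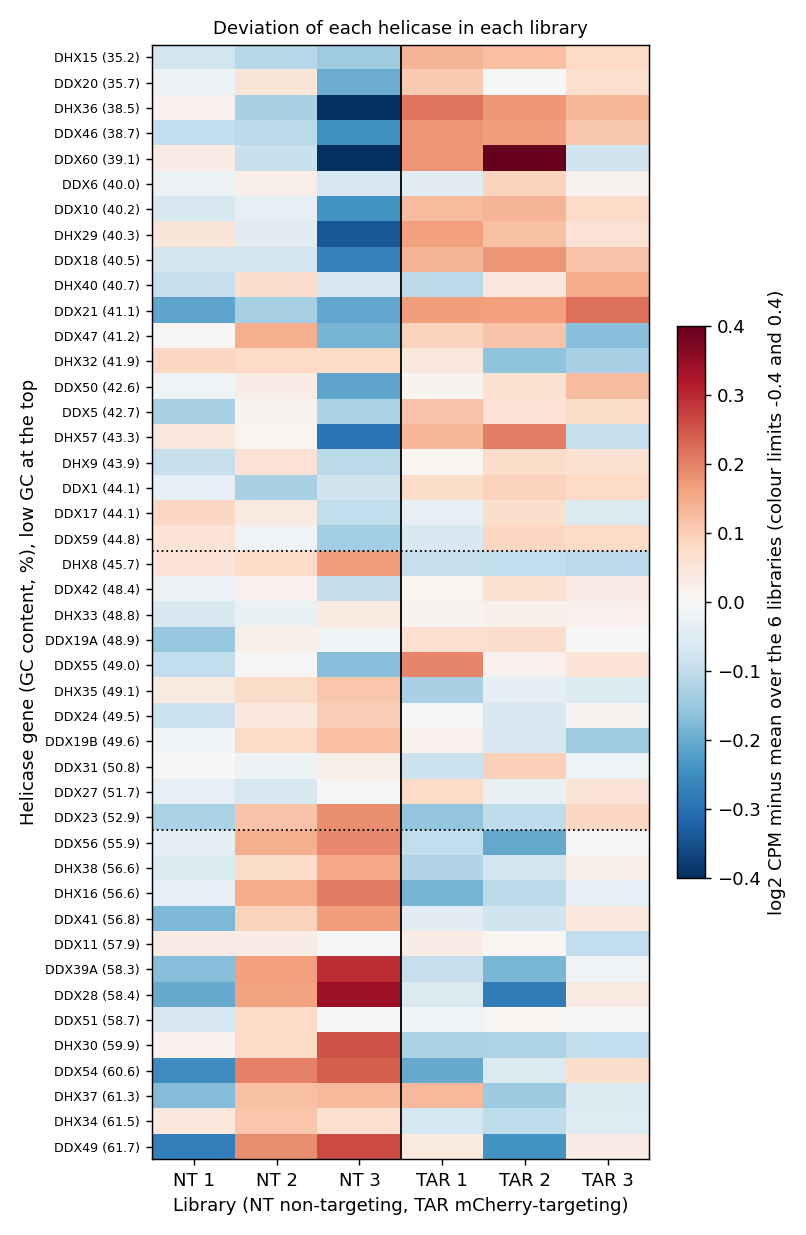
Deviation of log2 CPM from the mean over the 6 libraries for each tested helicase (rows, ordered by GC content) in each library (columns), red above and blue below 0, with dotted lines at 45% and 55% GC. Genes of low GC content are lowest in non-targeting replicate 3 (median -0.19), and genes of high GC content are highest there (median 0.19).

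For the GC correction, a trend on GC content was fitted to each library's deviations from the gene means over the 6 libraries. Removing that trend also removes any group difference that follows GC content, whatever its origin. After the removal, 4 of the 44 (9.09%) had an unadjusted p under 0.05 in edgeR, against 6.70% of all genes. DDX21 then had a log2 fold change of 0.21 ± 0.0942 (SE; edgeR unadjusted p = 0.0466, adjusted p = 0.738), and DDX55 had 0.19 ± 0.079 (SE; unadjusted p = 0.0304). DHX8 was at -0.25 ± 0.0763 (SE; unadjusted p = 0.00682), and DHX32, a DEAH-box protein of less settled function, at -0.30 ± 0.0856 (SE; unadjusted p = 0.00421). DHX32 was measured at 45.6, 45.4 and 45.5 CPM in the non-targeting and 44.3, 38.5 and 39.3 CPM in the mCherry-targeting libraries, and its GC content is 41.9%. The other 9 genes with an unadjusted p under 0.05 before the correction had smaller values after it. These were 0.084 for DDX46, 0.11 for DDX18, 0.13 for DHX36, 0.044 for DDX10, 0.08 for DDX1, -0.057 for DHX15, -0.083 for DHX30, -0.099 for DHX16 and -0.092 for DDX56. Over all 44 helicases the correction turned the sign of 15, 6 from above to below 0 and 9 from below to above.

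Within the 3 libraries with a low 7SK share the log2 difference was 0.38 for DDX21, 0.27 for DDX46 and 0.23 for DDX18, and within the other 3 it was 0.39, 0.28 and 0.29. These sets hold 1 library of a group each and give no test. DHX36 was at 0.18 and 0.40, DHX30 at -0.14 and -0.27, and DHX8 at -0.15 and -0.23. Of the 44 helicases 12 differed in sign between the sets, among them DDX39A, DDX54 and DDX49 at 0.032, 0.12 and 0.17 in the first and -0.24, -0.15 and -0.19 in the second. A fit with a term for the 2 sets gave edgeR adjusted p-values of 0.011 for DDX21, 0.042 for DDX46 and 0.0433 for DHX36, with 3.62% of all genes called. When the GC correction was added to that fit, edgeR called 0 helicases, and these adjusted p-values were 0.209, 0.648 and 0.598 (0.219% of all genes called).

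Calls for these genes also varied with the fit and with single libraries. With a term for the replicate number 4 helicases were called (DDX18, DDX21, DDX46 and DHX36), as were 6.14% of all genes. With the GC correction added, edgeR called 0 of them, at adjusted p-values of 0.457, 0.237, 0.595 and 0.42 (0.0305% of all genes called). With no filter on low counts 2 helicases were called (DDX21 and DHX36), as were 1.68% of all genes. Without non-targeting replicate 1, edgeR called 5 (DDX18, DDX21, DDX39A, DDX46 and DHX36), with 8.98% of all genes called. The helicases with an unadjusted p under 0.05 then numbered 17, with 26.7% of all genes. They numbered 5 without non-targeting replicate 3 (9.01% of all genes) and 4 without mCherry-targeting replicate 2 (9.76%). With the GC correction those under an unadjusted p of 0.05 numbered 6 when the replicate term was added (12.7% of all genes) and 4 when the library set term was added (11.1%).

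Other RNA helicases, G-patch proteins and known partners of the helicases were counted in the same fit. Of 21 other RNA helicases 19 were tested, with 5 higher and 3 lower at an unadjusted p under 0.05 (10.0% and 6.09% of all genes) and 0 called by edgeR (0.0102% of all genes). ASCC3, which separates strands in alkylation repair and splits stalled ribosomes, was at 126.5, 114 and 95.9 CPM against 179, 154 and 138 CPM. The groups did not overlap, and the log2 fold change was 0.49 ± 0.117 (SE; edgeR unadjusted p = 0.00134, adjusted p = 0.193). Of 13 G-patch proteins, a group that includes activators of DEAH-box helicases, 2 were higher and 0 lower at that p, beside the same shares of all genes. GPATCH4 was at 26.3, 32.0 and 27.6 CPM against 35.7, 34.6 and 37.1 CPM, without overlap, at a log2 fold change of 0.32 ± 0.101 (SE; edgeR adjusted p = 0.207). Of 17 other partners 1 was higher and 1 lower at that p, THOC1 of the export complex THO with 49.0, 46.0 and 41.2 CPM against 64.7, 55.2 and 52.9 CPM, and EDC3 of the decapping machinery. The log2 fold change was 0.34 ± 0.103 (SE) for THOC1 and -0.23 for EDC3, and neither was called in this fit. After correction for GC content the log2 fold change was 0.13 for THOC1, -0.15 for EDC3, 0.30 for ASCC3 and 0.34 for GPATCH4. None of them was called there. Of the 17 alternative fits, 5 called ASCC3, 2 called GPATCH4, 2 called THOC1 and 0 called EDC3. The library set term with the GC correction gave GPATCH4 an edgeR adjusted p of 0.0451 (0.219% of all genes called).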

How the data were processed

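RNA was measured in 6 HEK293T libraries, 3 per group, grouped by the labels. The values are raw read counts for each gene, deposited by the authors in 1 table without normalization. The submitters' processing notes name cutadapt 4.4, STAR 2.7.4a and the genome hg19 (GRCh37). How reads were assigned to genes, and on which strand, are points not given in the sources used here. Counts of overlapping, antisense and near-identical genes are therefore uncertain. Identifiers were matched without version to GENCODE 29 on GRCh38 (52338 of 57820), which gave symbols, coordinates, exonic length and the GC content of the longest transcript.

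After TMM scaling and filterByExpr, the robust quasi-likelihood F test of edgeR 4.0.16 (R 4.3.3) compared the groups with no other term. Its p-values were adjusted by Benjamini-Hochberg over all 19676 genes, and genes under 0.05 were called. Levels are CPM after TMM scaling, per kb where genes are compared. The biological coefficient of variation common to all genes was 0.113. The code was checked on simulated counts, with planted changes larger than those of the helicases and no trend on GC content. That check does not bear on differences of the size seen here.

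The helicases and the other lists were chosen with earlier results of these data known. Values per library are given for the 6 helicases with the smallest p in each direction, the highest per length in each role, the paired relatives and the leading gene of each other list. DDX1, DDX55 and DHX32 were added after their values were seen. Alternatives were DESeq2 size factors, library sizes alone, no filter, a minimum mean CPM of 5, the tools DESeq2 1.42.0 and limma-voom (limma 3.58.1), a replicate block, a GC correction (loess, span 0.5, per library), a term for libraries with a 7SK share above or below 1%, combinations of these, and leaving out each library. Windows shared with other genes are 50-base stretches of each helicase's longest annotated transcript, on the same strand.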

Additional observations from a re-analysis of the deposited data

How the results depend on the processing

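Of the 44 tested helicases, 2 (DDX21 and DHX36) were called with no filter on low counts, 1 (DDX21) by DESeq2 and 3 (DDX21, DDX46 and DHX36) with the library set term. Leaving out 1 library gave 0 to 5 calls. The 5 (DDX18, DDX21, DDX39A, DDX46 and DHX36) came without non-targeting replicate 1, when 8.98% of all genes were called. The count at an unadjusted edgeR p under 0.05 was 4 with the GC correction (6.70% of all genes). It was also 4 with the set term and the GC correction (11.1%). With 1 library left out the count was 4 to 17. It was 17 without non-targeting replicate 1, with 26.7% of all genes. Without non-targeting replicate 3 it was 5 (9.01%), and without mCherry-targeting replicate 2 it was 4 (9.76%). For the other helicases and partners, 3 were called with no filter (1.68% of all genes), 1 by DESeq2 (0.879%), 3 with the set term (3.62%), 1 with the set term and the GC correction (0.219%), and 0 to 7 with 1 library left out, 7 without non-targeting replicate 1 (8.98%). The median level was 14.2 CPM per kb and 21.7 by the longest transcript. The cause of these shifts was not tested.

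Same-numbered libraries had correlations of 0.222, 0.052 and 0.315 in their deviations from the group means. Between unlike numbers the correlations ran from -0.317 to 0.113, and 5 of 6 libraries correlated best with their own number. These values do not settle whether the numbers pair the libraries. The labels name no pairing, and the main fit had no replicate term. With a replicate block, 4 helicases (DDX18, DDX21, DDX46 and DHX36) and 7 other helicases and partners were called, with 6.14% of all genes called. The block with the GC correction gave 6 helicases at an unadjusted edgeR p under 0.05, with 12.7% of all genes.

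The GC correction turned the sign of 15 of the 44 helicases alone, of 15 with the block and of 17 with the set term. Those with values per library in the text are given here. With the GC correction, alone, with the block and with the set term, the log2 fold change was 0.095, 0.094 and 0.053 for DDX11, -0.14, -0.14 and -0.10 for DDX6, -0.057, -0.052 and -0.0087 for DHX15, and -0.11, -0.11 and -0.028 for DHX40. DHX34 was at 0.011 and 0.012 in the first 2 of these fits, and DDX39A at 0.012 in the last. DDX17 was at 0.001 with library sizes alone. With 1 library left out it ranged from -0.068 (without non-targeting replicate 3) to 0.024 (without non-targeting replicate 1), and was above 0 without non-targeting replicate 2 or mCherry-targeting replicate 1 or 3 as well. DHX40 ranged from -0.0043 (without mCherry-targeting replicate 3) to 0.12 (without mCherry-targeting replicate 1). With 1 library left out, the median log2 fold change of the helicases ranged from 0.0068 to 0.039, the difference in their share of counts from 0.0133 to 0.0465 percentage points, and the DDX5 to DDX17 ratio difference from 0.11 to 0.22. Of the 11 helicases with an unadjusted p under 0.05, all 11 kept their sign when any library was left out. DHX36 alone moved by over 1.5 times. These 11 were picked by their p in the same libraries, so the kept signs are no independent support for them. The number of libraries, 3 a group, and the spread between them limit the size of difference that could be called.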
